A study of Mus musculus with 29 samples.

Results

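The growth hormone and insulin-like growth factor (IGF) axis was described here by 10 genes, Igf1, Igf2, Igf1r, Ghr, Socs2, Igfbp3, Igfbp4, Igfbp5, Igfbp6 and Igfbp7. They were taken by symbol from a table of 24770 genes, and all 10 were found and passed the filter on low counts in each of the comparisons below. The table holds bulk RNA-seq of brown adipose tissue (BAT) and gastrocnemius muscle (skeletal muscle, SkM) from wild-type male C57BL/6J mice. The control group was sedentary and ate freely, the CR group was placed on calorie restriction down to 70% of free intake, the EX group was trained on a treadmill, and the CREX group received both. Interventions began at 8 weeks of age and ran for 8 weeks, and tissues were taken after a 6 h fast, 24 h after the last run in the trained groups. BAT gave 3 control, 4 CR, 4 EX and 4 CREX libraries, and SkM gave 4 control, 3 CR, 4 EX and 3 CREX libraries. All mice shared 1 genetic background, and no group carried an engineered allele. The labels number the libraries within a group but do not tie the numbers to animals, so p-values measure the spread between these libraries, which may be in part technical.

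Pituitary growth hormone acts through its receptor, encoded by Ghr, which signals by the kinase JAK2 and the STAT5 transcription factors. The best known targets of this signal are Igf1, the growth factor that liver releases into blood and that fat and muscle also make for local use, and Socs2, which encodes a feedback inhibitor of the receptor. IGF1 and IGF2 act through the receptor encoded by Igf1r. The IGF binding proteins hold the growth factors in blood and matrix and can either limit or prolong their action, and Igfbp7 encodes a related protein with low affinity for IGFs that is abundant in vessel walls. Calorie restriction is known to lower circulating IGF1, while resistance of tissues to growth hormone is a known feature of fasting.

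The smallest BAT library held 21047242 counts and the largest 24919377, and SkM libraries held 23050918 to 23425284. The 6 brown adipocyte markers (Ucp1, Cidea, Elovl3, Ppargc1a, Adipoq, Plin1) summed to 3711 to 7746 CPM (counts scaled to library size) in BAT and the 10 muscle fibre markers to 124700 to 213400 CPM in SkM, as the tissue labels say. Several libraries stood apart. BAT libraries held very different amounts of muscle RNA, with the muscle markers summing to between 3.63 and 6921 CPM. The 7 hepatocyte markers, led by Alb, summed to 40.1 to 229 CPM in the 3 SkM CR libraries and 49.1 CPM in CREX 1 of SkM, against at most 6.42 CPM in the control and EX libraries of SkM. They were also raised in BAT CR 3, EX 2 and CREX 4. CREX 2 and CREX 3 of SkM had low slow fibre scores (the mean log2(CPM + 1) of 7 slow fibre genes) of 3.27 and 1.87, against 4.61 to 7.98 in the libraries of the other groups. These libraries were left out in turn, and the values are given where they matter.

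The levels of the 10 genes were first compared in the untreated state. Divided by the length of the exons of each gene, Igfbp7 was the most abundant in BAT of control mice, with 36.0 ± 1.82 CPM per kilobase (SD, n = 3), followed by Ghr with 13.5 ± 1.16. In SkM of control mice, Igfbp5 came first with 48.9 ± 10.5 CPM per kilobase (SD, n = 4), then Igfbp7 with 39.8 ± 5.13 and Igfbp6 with 21.5 ± 7.42. Igf1, Igf1r and Socs2 all lay below 1 CPM per kilobase in both tissues. Dividing by the longest transcript instead kept Igfbp7 first in BAT and Igfbp5 first in SkM. In the fit of control SkM against control BAT, 6 of the 10 genes were differentially expressed (edgeR quasi-likelihood test, Benjamini-Hochberg adjusted p below 0.05 over all genes and a fold change above 1.5), and all 6 were higher in SkM. Of all genes tested in this comparison, 60% passed the same rule and 30.2% passed it as higher in SkM. The log2 fold changes were 3.04 ± 0.18 (SE) for Igfbp5, 2.13 ± 0.35 for Igfbp6, 1.51 ± 0.12 for Igf2, 1.21 ± 0.15 for Igf1r, 1.01 ± 0.19 for Socs2 and 0.78 ± 0.15 for Igfbp3. Igfbp7 differed by 0.42 ± 0.11, under the fold limit. Igf1 (-0.14 ± 0.18), Ghr (-0.18 ± 0.09) and Igfbp4 (0.16 ± 0.15) did not pass the test, with 95% intervals of the log2 difference from -0.53 to 0.24, from -0.38 to 0.02 and from -0.17 to 0.50. Exons of Igf2 share 3596 bases with the same-strand gene model Gm49394, and those of Igfbp7 share 85 bases with the antisense gene Polr2b, so reads of these pairs may be split or mixed.

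In BAT, CR moved 3 of the 5 binding protein genes, in both directions, and Socs2. Relative to control, Igfbp4, Igfbp3 and Socs2 were upregulated and Igfbp5 was downregulated, which is 4 of 10 genes against 10.7% of all genes tested. Igfbp4 (chr11:99040005-99052655, plus strand, GRCm38), whose product binds IGFs and is cleaved by pappalysin, was measured at 28.5, 34.6 and 29.4 CPM in the 3 control libraries and at 72.1, 52.4, 72.7 and 70.9 CPM in the 4 CR libraries. Every CR library lay above every control library, and the log2 fold change was 1.12 ± 0.12 (SE), adjusted p = 0.000383 (edgeR). Igfbp5 (chr1:72858065-72874865, minus strand), a carrier that is deposited in matrix, went the other way. It was measured at 46.3, 46.1 and 36.6 CPM in control BAT and at 25.2, 23.7, 23.3 and 23.6 CPM in CR BAT. The 4 CR values were tightly grouped and the groups did not overlap, with a log2 fold change of -0.84 ± 0.09 and an adjusted p of 0.000222 (edgeR). Igfbp3 (chr11:7206086-7215498, minus strand) encodes the main carrier of IGFs in blood. Its level was 9.79, 7.53 and 10.2 CPM in the controls and 16.8, 28.5, 13.8 and 17.6 CPM under CR. CR 2 was the highest, the groups did not overlap, and the log2 fold change was 1.07 ± 0.26 with an adjusted p of 0.0309 (edgeR). Socs2 (chr10:95383903-95417321, minus strand) rose from 2.67, 2.98 and 3.92 CPM in control BAT to 4.99, 5.87, 7.83 and 5.59 CPM in CR BAT, again with no overlap. Its log2 fold change was 0.93 ± 0.19, adjusted p = 0.00824 (edgeR). The groups did not overlap for these 4 of the 10 genes, against 33.4% of all genes tested.

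The calls differed in how firmly they held. Igfbp4 and Igfbp5 passed in each alternative fit of this comparison, with the muscle score as a covariate (log2 fold changes of 1.099 and -0.859) and without CR 3 and its liver RNA (1.07 and -0.84). The call for Igfbp3 was lost without CR 1, CR 4 or any of the 3 control libraries, with log2 fold changes of 0.94 to 1.15 and adjusted p of 0.0513 to 0.108 (edgeR), and in 2 of the other settings, with an adjusted p of up to 0.172 (edgeR). That for Socs2 held without any 1 library and was lost in the fit on all BAT groups (0.93, adjusted p = 0.108, edgeR). The 6 fibroblast markers, none of which was at 0, summed to 269 to 323 CPM in the control libraries and to 154 to 189 CPM in the CR libraries, so they were lower in the same libraries as Igfbp5. The CR libraries also lay below the controls in the summed markers of mural cells (224 to 261 against 321 to 370 CPM), endothelial cells (254 to 324 against 353 to 400 CPM), macrophages (29.6 to 51.0 against 59.3 to 64.7 CPM) and brown adipocytes (4602 to 5381 against 6695 to 7746 CPM). They lay above the controls in the mesothelial markers (6.55 to 8.65 against 2.19 to 3.66 CPM), of which Msln, Upk1b and Upk3b were at 0 in every CR library. The part of these marker sets in the results was not tested. In bulk tissue, fewer cells of a type and less RNA per cell cannot be told apart.

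The stretches before a start site of Igfbp4 and Igfbp5 are shown because these genes gave the firmest and opposite responses to CR in BAT. Each is the 250 bases before a RefSeq start site, 5′ to 3′ on the gene's strand (GRCm38.p6). The Igfbp4 window is chr11:99040994-99041243 on the plus strand, and the Igfbp5 window is chr1:72874866-72875115 on the minus strand. The Igfbp4 window lies inside the gene span given above, because this start site is downstream of the first base of that span. Capitals mark a TATAAA match.
Igfbp4: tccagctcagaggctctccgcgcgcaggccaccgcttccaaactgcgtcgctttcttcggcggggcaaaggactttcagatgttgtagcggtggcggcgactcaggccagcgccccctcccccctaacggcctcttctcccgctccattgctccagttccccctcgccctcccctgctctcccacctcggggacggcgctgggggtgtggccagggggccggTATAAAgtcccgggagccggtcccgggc
Igfbp5: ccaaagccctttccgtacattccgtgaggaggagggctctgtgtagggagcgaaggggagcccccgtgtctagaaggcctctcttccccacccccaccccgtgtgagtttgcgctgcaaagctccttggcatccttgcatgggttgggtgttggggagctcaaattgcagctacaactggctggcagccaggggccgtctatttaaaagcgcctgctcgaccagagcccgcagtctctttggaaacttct

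A total of 4 motifs were searched on both strands in windows of 300 bases around the start (250 before and 50 after), which the RefSeq table holds for 9 of the 10 genes, all but Socs2. TATAAA was found in 3 of the 9, Igfbp4 (first base 28 bases before the start), Igfbp6 and Ghr, and in 13.6% of all 32851 windows. The STAT element TTCNNNGAA (its own reverse complement) was found in 0 of the 9 and in 8.3% of all windows, the forkhead element TGTTTAC in 0 of the 9 and 3.65%, and the glucocorticoid response element in 0 of the 9 and 0.0578%. These are matches of letters in short windows and say nothing of whether a factor binds elsewhere.

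**Figure D1:**
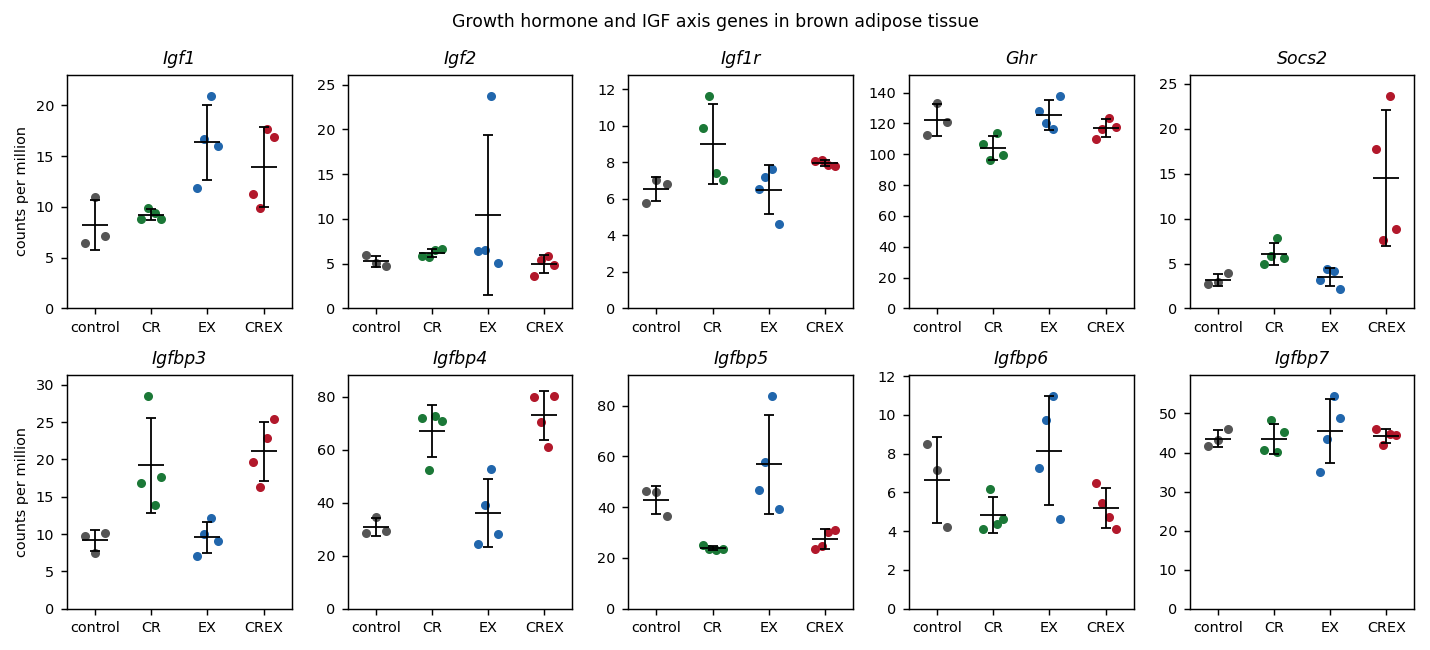
Levels of the 10 genes in BAT, in CPM on a linear axis from 0. Each point is 1 library (3 control, 4 CR, 4 EX, 4 CREX), the horizontal mark is the group mean and the bar is the SD. Igfbp3, Igfbp4 and Socs2 were higher and Igfbp5 was lower in both restricted groups than in the corresponding freely fed groups, while Igfbp7 had group means of 43.6 to 45.5 CPM.

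The growth factors, their receptor and the growth hormone receptor did not pass the test in this comparison. Igf1 (chr10:87858265-87937047, plus strand) was measured at 6.42, 10.99 and 7.14 CPM in control BAT and at 8.77, 9.89, 9.44 and 8.77 CPM in CR BAT, and the groups overlapped. Its log2 fold change was 0.17, with a 95% interval from -0.21 to 0.55. Igf2, the growth factor best known from fetal life, differed by 0.24 (interval -0.04 to 0.52). Igf1r differed by 0.46 ± 0.18 (adjusted p = 0.101, edgeR) and Ghr by -0.23 ± 0.08 (adjusted p = 0.0751, edgeR). The level of Ghr was 122 ± 10.5 CPM (SD, n = 3) in control BAT and 104 ± 7.98 CPM (SD, n = 4) in CR BAT. Igfbp6, whose product prefers IGF2, differed by -0.45 ± 0.23, and the 2 group means of Igfbp7 were both 43.6 CPM.

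In trained mice, the same question was asked by setting CREX against EX, with no library shared with the comparison above. Socs2, Igfbp3 and Igfbp4 were upregulated and Igfbp5 was downregulated, again 4 of 10 genes, against 4.48% of all genes tested. Socs2 was measured at 3.19, 4.39, 4.21 and 2.14 CPM in the EX libraries and at 17.7, 7.67, 23.7 and 8.88 CPM in the CREX libraries. Every CREX library was above every EX library, but CREX 1 and CREX 3 were far above CREX 2 and CREX 4, and the log2 fold change was 2.05 ± 0.43 (SE), adjusted p = 0.0321 (edgeR). Igfbp3 was measured at 7.11, 9.97, 12.2 and 9.02 CPM under EX and at 19.6, 16.3, 22.9 and 25.4 CPM under CREX, with no overlap. The log2 fold change was 1.13 ± 0.18, adjusted p = 0.00909 (edgeR). Igfbp4 rose from 24.6, 39.1, 52.9 and 28.1 CPM to 80.0, 70.6, 61.0 and 80.2 CPM, with EX 3 the nearest to the CREX libraries, and its log2 fold change was 1.004 ± 0.24 (adjusted p = 0.0480, edgeR). Igfbp5 fell from 46.7, 57.7, 83.8 and 39.3 CPM to 23.7, 24.6, 30.3 and 31.2 CPM, a log2 fold change of -1.06 ± 0.24 (adjusted p = 0.0379, edgeR). In the 5 genes whose groups did not overlap here (17.7% of all genes tested), these 4 were joined by Igf1r. Igf1r differed by 0.28 ± 0.15 and did not pass the test. Igf2 (-1.09 ± 0.54), Igf1 (-0.24 ± 0.24), Ghr (-0.11 ± 0.07) and Igfbp6 (-0.66 ± 0.26) did not pass either.

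These calls lay close to the threshold. The call for Igfbp3 held without any 1 library. That for Igfbp4 was lost without any 1 library other than EX 3, with log2 fold changes of 0.867 to 1.082 and adjusted p of up to 0.108 (edgeR), and with the muscle score as a covariate (0.936, adjusted p = 0.0505, edgeR), where Igfbp6 passed instead. Igfbp5 lost its call without EX 1, EX 2 or any CREX library (-1.14 to -0.99, adjusted p up to 0.0975, edgeR) and Socs2 without CREX 1 or any EX library (1.87 to 2.18, adjusted p up to 0.0801, edgeR). Without EX 2 and CREX 4, the libraries with liver RNA, none of the 4 genes passed, and the calls over all genes fell from 594 to 190. The log2 fold changes were then 2.35 for Socs2, 1.05 for Igfbp3, 0.997 for Igfbp4 and -1.12 for Igfbp5, so that the sizes stayed while the adjusted p rose to 0.0695 to 0.205 (edgeR). Fibroblast markers summed to 297 to 1051 CPM in the EX libraries and to 180 to 200 CPM in the CREX libraries. Mural markers (286 to 344.5 against 215 to 272 CPM) and brown adipocyte markers (5776 to 6795 against 3711 to 5088 CPM) were also lower under CREX. The part of these markers in the values was not tested. EX 3, the library with the highest fibroblast sum, also held the highest Igfbp5 and Igf2 levels of the group. Without it, the log2 fold change was -0.81 for Igfbp5, which still passed, and -0.27 for Igf2.

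No gene of the axis passed the edgeR test for training alone in BAT. Between EX and control, 0 of the 10 genes passed and 0% of all genes tested did, while 7.25% of all genes and 1 of the 10, Igf1, had an unadjusted p below 0.05. Igf1 was measured at 6.42, 10.99 and 7.14 CPM in the control libraries and at 11.9, 16.6, 20.9 and 16.0 CPM in the EX libraries. All 4 EX libraries lay above all 3 controls, as was so for 8.1% of all genes in either direction. Its log2 fold change was 1.01 ± 0.25 (SE), with an adjusted p of 0.436 by edgeR and 0.00705 by DESeq2, so the call depends on the tool. Igf2 differed by the same amount, 1.01 ± 0.64, but this rested on EX 3, which held 23.8 CPM against 5.08 to 6.54 CPM in the other EX libraries, and without EX 3 the difference was 0.20. Igfbp5 differed by 0.42 ± 0.27 (interval -0.25 to 1.08).

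When training was added to restriction (CREX compared to CR), 0 of the 10 genes passed by edgeR, against 0.00763% of all genes tested. A total of 3 had an unadjusted p below 0.05, as did 7.63% of all genes. Muscle fibre markers summed to 21.7 to 1611 CPM in the CR libraries and to 1156 to 6921 CPM in the CREX libraries. CREX 3 held the most muscle RNA and also the highest Socs2 and Igf1 levels of its group. The part of muscle RNA in the differences that follow was not tested. Socs2 differed by 1.25 ± 0.39, with an adjusted p of 0.563 by edgeR and 0.0202 by DESeq2, but CREX 2 with 7.67 CPM lay below CR 3 with 7.83 CPM. The groups overlapped for all 10 genes here, while 5.15% of all genes had groups that did not. Igf1 differed by 0.60 ± 0.18, the CREX libraries holding 11.3, 9.84, 17.7 and 16.9 CPM, and Ghr by 0.17 ± 0.07. The means of Socs2 in BAT thus stood in the order control (3.19 CPM), EX (3.48), CR (6.07) and CREX (14.5), where control and EX overlapped, EX and CR did not, and CR and CREX overlapped. The test of whether CR acted differently on trained and sedentary BAT gave 0 of 10 genes by edgeR and by DESeq2 (0% of all genes and 5.75% at an unadjusted p below 0.05). The difference was 1.12 ± 0.51 for Socs2 (unadjusted p = 0.0471, adjusted p = 0.859, edgeR) and -1.33 ± 0.61 for Igf2. That for Igf2 ranged from -1.55 to -0.51 with 1 library left out, and EX 3 held far more Igf2 than the other EX libraries.

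In SkM, CR raised Socs2 and Igfbp3 relative to control, 2 of 10 genes against 9.6% of all genes tested. Ghr and Igfbp7 passed the adjusted p but not the fold limit, making 4 of 10 against 14% of all genes. Socs2 was measured at 4.78, 7.03, 4.98 and 4.49 CPM in the control libraries and at 6.93, 10.9 and 9.05 CPM in the CR libraries. The lowest CR library lay just below the highest control, and the log2 fold change was 0.76 ± 0.19 (SE), adjusted p = 0.0240 (edgeR). Igfbp3 was measured at 14.4, 14.7, 12.5 and 10.3 CPM in the controls and at 23.2, 20.0 and 16.2 CPM under CR, with no overlap. Its log2 fold change was 0.61 ± 0.16, adjusted p = 0.0277 (edgeR). Ghr (chr15:3317755-3583352, minus strand) stood at 83.3, 93.0, 85.0 and 95.1 CPM in the controls and at 117, 118 and 110 CPM under CR, again with no overlap, and differed by 0.37 ± 0.10 (adjusted p = 0.0347, edgeR). Igfbp7 (chr5:77349240-77408045, minus strand) stood at 55.2, 46.7, 49.98 and 40.4 CPM in the controls and at 38.3, 32.7 and 34.1 CPM under CR, and all 3 CR libraries were the lower ones (-0.45 ± 0.13, adjusted p = 0.0405, edgeR). The groups did not overlap for these last 3 of the 10 genes, against 27.5% of all genes tested.

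Igf1 itself had the same mean in both groups, 6.14 ± 0.45 CPM (SD, n = 4) in control SkM and 6.15 ± 1.73 CPM (SD, n = 3) in CR SkM, and the 95% interval of its log2 fold change ran from -0.38 to 0.40. Igfbp5, the most abundant of the 10 genes in this tissue, was spread widely under CR, at 175, 496 and 255 CPM, on both sides of the control values of 229 to 350 CPM. Igfbp4 (0.40 ± 0.17), Igf2 (0.35 ± 0.16) and Igfbp6 (-0.54 ± 0.28) did not pass the test.

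The 3 CR libraries of SkM were also those with liver RNA. The hepatocyte markers, all 7 measured and none at 0 in every library of a group, summed to 0.322 to 6.42 CPM in the controls and 40.1 to 229 CPM under CR. The SkM libraries CR 2 and CR 3 held the most. With both left out, the log2 fold change of Socs2 was 0.40 (adjusted p = 0.295, edgeR) and the call was lost, that of Igfbp3 was 0.86 (adjusted p = 0.0150, edgeR), that of Ghr was 0.42 (adjusted p = 0.0887, edgeR) and that of Igf2 was 0.70, which then passed. That of Igf1, a gene that liver expresses strongly, was -0.37 and did not pass. This fit keeps 1 CR library, which is taken to vary like the others. Leaving out 1 library at a time, Socs2 lost its call without CR 2 or CR 3 or without control 1, 3 or 4 (0.59 to 0.75, adjusted p up to 0.102, edgeR), and Igfbp3 without CR 1, CR 2, control 3 or control 4 (0.47 to 0.61, adjusted p up to 0.0812, edgeR). The 6 endothelial markers summed to 262 to 319 CPM in the controls and to 161 to 203 CPM under CR, lower in the same libraries as Igfbp7. The fibroblast markers were lower there too (233 to 293 against 322 to 412 CPM in the controls). The muscle fibre markers were higher (156200 to 213400 against 124700 to 140100 CPM). In BAT, the endothelial markers were also lower under CR, while the means of Igfbp7 were both 43.6 CPM. The part of these markers in the value of Igfbp7 was not tested.

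**Figure D2:**
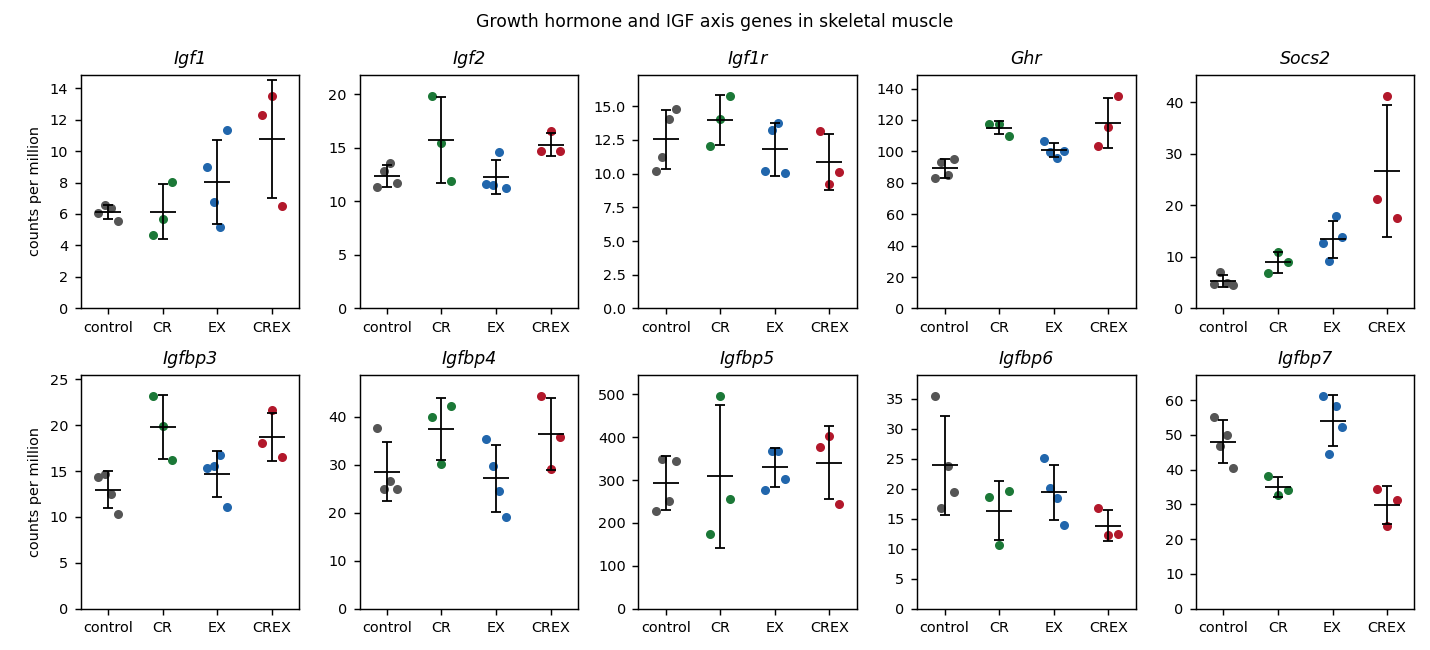
Levels of the 10 genes in SkM, in CPM on a linear axis from 0. Each point is 1 library (4 control, 3 CR, 4 EX, 3 CREX), the horizontal mark is the group mean and the bar is the SD. Socs2 had its lowest mean in the control group (5.32 CPM) and its highest in CREX (26.6 CPM), and Igfbp7 was lower in the restricted groups than in the freely fed groups.

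In trained mice, Igfbp7 was the gene of the axis that passed. Under CREX it was measured at 34.4, 23.9 and 31.2 CPM, against 61.2, 44.4, 58.3 and 52.4 CPM under EX. The groups were well apart, and the log2 fold change was -0.86 ± 0.15 (SE), adjusted p = 0.0116 (edgeR). That is 1 of 10 genes, against 8.87% of all genes tested. The groups did not overlap for Igfbp7 and for Igf2, against 28.3% of all genes. Igf2 was measured at 11.7, 11.6, 14.6 and 11.3 CPM under EX and at 14.7, 16.5 and 14.7 CPM under CREX, and its difference of 0.32 ± 0.12 did not pass the test. Socs2 was measured at 12.7, 9.13, 17.9 and 13.9 CPM under EX and at 21.2, 41.2 and 17.4 CPM under CREX. CREX 2 was the highest of all SkM libraries, the groups overlapped, and the difference of 0.98 ± 0.33 had an adjusted p of 0.0873 by edgeR and 0.0109 by DESeq2. Igf1 (0.42 ± 0.31), Igfbp3 (0.35 ± 0.15), Igfbp4 (0.42 ± 0.21), Ghr (0.23 ± 0.11) and Igfbp6 (-0.49 ± 0.20) did not pass.

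Slow fibre scores were 1.87 to 6.03 in the CREX libraries and 4.61 to 7.95 in the EX libraries. The score thus ran in part with the group, and a fit with it as a covariate cannot separate the 2. The part of fibre content in these values was not tested. With the slow fibre score as a covariate, the calls over all genes fell from 1163 to 52. Without CREX 2 and CREX 3, which leaves 1 CREX library taken to vary like the others, the difference of Igfbp7 was -0.65 (adjusted p = 0.0787, edgeR), and with the slow fibre score as a covariate it was -0.84 (adjusted p = 0.124, edgeR), so both ended the call. Without CREX 1, the CREX library with liver RNA, it was -0.97 (adjusted p = 0.00124, edgeR). The endothelial markers summed to 254 to 321 CPM under EX and to 120 to 234 CPM under CREX. The muscle fibre markers summed to 137000 to 157300 CPM under EX and to 158500 to 205200 CPM under CREX. The fibroblast markers summed to 278 to 436 CPM under EX and to 252 to 282 CPM under CREX, so these sums overlapped. The fibroblast scores did not overlap, at 4.72 to 5.36 under EX and 3.95 to 4.40 under CREX. The part of these markers was not tested here either.

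Training of freely fed mice raised Socs2 in SkM. Between EX and control, Socs2 was 1 of only 10 genes in the whole table that passed the test, 0.0775% of all genes tested. The 4 EX libraries, at 12.7, 9.13, 17.9 and 13.9 CPM, all lay above the 4 control libraries, of which control 2 was the highest with 7.03 CPM. The log2 fold change was 1.33 ± 0.20 (SE), adjusted p = 0.0279 (edgeR). The hepatocyte markers summed to 0.181 to 2.08 CPM in these EX libraries and were not above the controls. Leaving out 1 library other than control 2 or EX 2 raised the adjusted p to between 0.0572 and 0.125 (edgeR) with log2 fold changes of 1.16 to 1.36, and the fit on all SkM groups and the slow fibre covariate also ended the call, with log2 fold changes of 1.33 and 1.44. Ghr and Socs2 were the 2 of the 10 genes whose groups did not overlap, against 4.22% of all genes. Ghr stood at 107, 99.7, 95.9 and 100.4 CPM under EX and differed by 0.17 ± 0.08, which did not pass the test. Igf1 differed by 0.39 ± 0.20 (interval -0.04 to 0.81).

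When training was added to restriction in SkM (CREX compared to CR), 0 of the 10 genes and 0% of all genes passed by edgeR, with 3.65% of all genes and 2 of the 10 at an unadjusted p below 0.05. Socs2 differed by 1.56 ± 0.34, its 3 CREX libraries lay above its 3 CR libraries (7.86% of all genes did not overlap), and the adjusted p was 0.999 by edgeR and 0.00447 by DESeq2. Igf1 differed by 0.80 ± 0.30, with CREX libraries at 12.3, 13.5 and 6.50 CPM against 4.69, 5.69 and 8.06 CPM under CR. The means of Socs2 in SkM stood in the order control (5.32 CPM), CR (8.98), EX (13.4) and CREX (26.6), and each neighboring pair of groups overlapped. For Igf1 the order was control (6.14 CPM), CR (6.15), EX (8.04) and CREX (10.8), also with overlap between all neighbors. The test of whether CR acted differently on trained and sedentary SkM gave 0 of 10 genes by edgeR and by DESeq2 (0% of all genes and 4.92% at an unadjusted p below 0.05), with differences of 0.25 ± 0.42 for Socs2 and -0.39 ± 0.20 for Igfbp7.

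**Figure D3:**
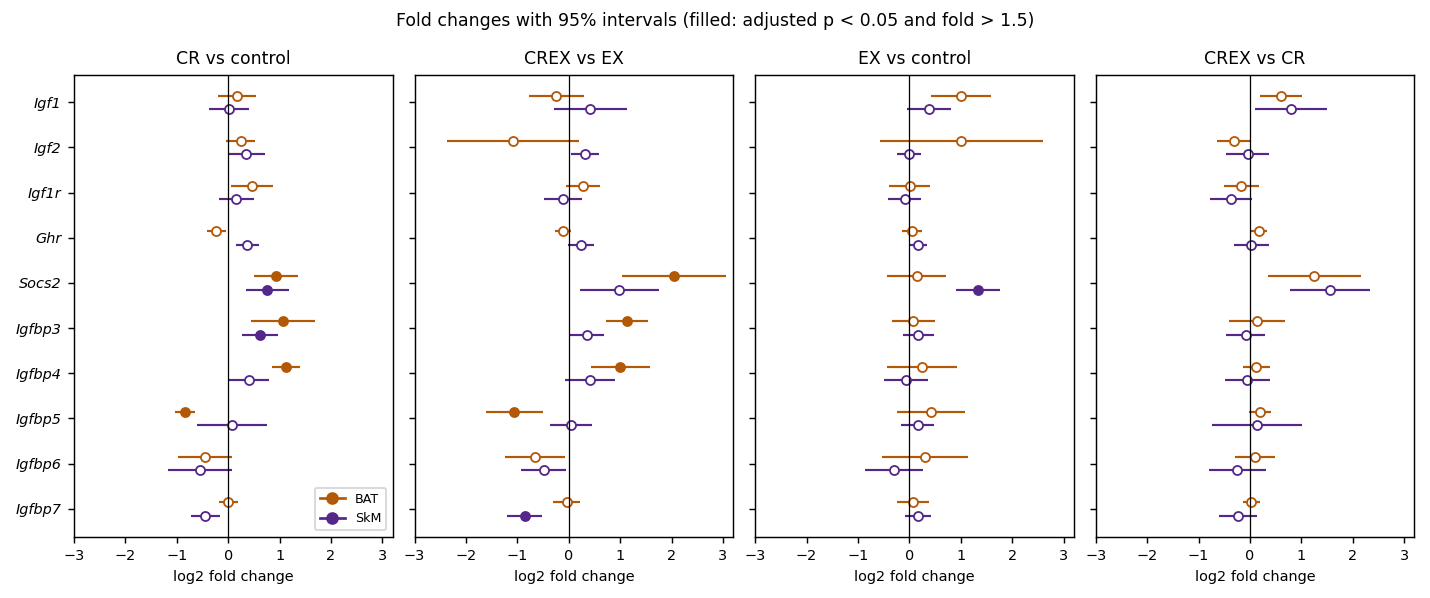
Log2 fold changes of the 10 genes in the 4 comparisons of each tissue, with 95% intervals from the edgeR fit. Filled points passed the adjusted p of 0.05 and the fold of 1.5. In BAT, the filled points are Socs2, Igfbp3, Igfbp4 and Igfbp5 in both restriction comparisons, and in SkM they are Socs2 and Igfbp3 in sedentary mice, Igfbp7 in trained mice and Socs2 for training alone. Comparisons in the same tissue share groups.

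Whether restriction acted differently in the 2 tissues was tested as the difference between the SkM and BAT log2 fold changes. The fit took the BAT and SkM libraries as independent. The labels do not say whether they came from the same mice, so a pairing by animal could not be used. The same holds for control SkM against control BAT. In sedentary mice, 1 of 10 genes passed an adjusted p of 0.05, against 7.58% of all genes tested. This was Ghr, with a difference of 0.59 ± 0.13 (SE, adjusted p = 0.0139, edgeR), made of the higher level under CR in SkM and the lower mean in BAT given above. Without control 2 of BAT, it was 0.50 with an adjusted p of 0.0571 (edgeR). Igfbp4 (-0.73 ± 0.24), Igfbp7 (-0.46 ± 0.15) and Igfbp5 (0.91 ± 0.38) did not pass, with adjusted p of 0.0724, 0.0757 and 0.165 (edgeR), and DESeq2 called the first and second of them. In trained mice the 1 of 10 that passed was Igfbp7, against 5.58% of all genes, with a difference of -0.82 ± 0.20 (adjusted p = 0.0283, edgeR). Its level in BAT was 45.5 ± 8.22 CPM (SD, n = 4) under EX and 44.3 ± 1.75 CPM (SD, n = 4) under CREX, while in SkM it was 54.1 ± 7.39 (SD, n = 4) and 29.8 ± 5.36 (SD, n = 3). The adjusted p was between 0.0545 and 0.0798 (edgeR) without CREX 1, CREX 4 or EX 2 of BAT or CREX 2 or CREX 3 of SkM. Igfbp5 (1.102 ± 0.31), Igfbp3 (-0.78 ± 0.25) and Ghr (0.33 ± 0.13) had adjusted p of 0.0540, 0.0824 and 0.153 (edgeR).

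The axis was then followed beyond these genes with 4 lists of its other components. Of 14 genes of growth hormone receptor signalling, 12 were tested in BAT and 13 in SkM. None passed in BAT CR compared to control (median log2 fold change -0.17, against 0.00 for all genes) or in CREX compared to EX. Of all genes tested, 10.7% and 4.48% passed in these comparisons. Stat5b, the main STAT of this receptor, passed the adjusted p but not the fold in BAT under CR (-0.40 ± 0.09, adjusted p = 0.0109, edgeR) and in SkM under CR (-0.44 ± 0.13, adjusted p = 0.0488, edgeR). In SkM, 1 gene of the list passed under CR, against 9.6% of all genes tested. This was Cish, which encodes another feedback inhibitor induced by STAT5. Cish was measured at 3.22, 8.56, 3.57 and 2.62 CPM in the control libraries and at 11.6, 60.3 and 10.8 CPM in the CR libraries. CR 2 was far above the others, the groups did not overlap, and the log2 fold change was 2.62 ± 0.71 (adjusted p = 0.0496, edgeR). Without CR 2 it was 1.33 and did not pass, and the call was lost in 10 of 16 alternatives in all, among them those without CR 1 or without control 1, 3 or 4, with adjusted p of up to 0.185 (edgeR). In CREX the 3 libraries held 52.2, 97.5 and 145.5 CPM against 14.9, 13.4, 64.4 and 6.66 CPM under EX, and the difference of 1.98 ± 0.85 did not pass. CREX 3 of SkM also held 218 CPM of Socs3 and 20.6 CPM of Socs1, other inhibitors of cytokine receptors, where the other SkM libraries held at most 3.60 and 1.11 CPM. The start of Cish is shown because STAT elements are a known feature of this gene. It also holds the only matches of that element among the windows of Cish and of the 9 genes searched. Socs2 had no window and was not searched. The 30 bases at chr9:107296654-107296683 (plus strand, GRCm38.p6) span the RefSeq start, with a pair of TTCNNNGAA matches in capitals.
Cish: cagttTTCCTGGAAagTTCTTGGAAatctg

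The other carriers of IGFs and the proteases that cut them were mostly too low to test, with 4 of 9 genes tested in each of these comparisons. In BAT, Stc1, a pappalysin inhibitor of the stanniocalcin family, was downregulated under CR (-0.80 ± 0.26, adjusted p = 0.0496, edgeR) from 0.966 to 1.24 CPM in the controls to 0.473 to 0.783 CPM under CR, a call lost without any 1 library other than CR 3 and by DESeq2 (adjusted p = 0.130). In SkM, Stc2, of the same family, and Igfals, the subunit that holds IGFs in the large complex of blood, were upregulated in both restriction comparisons. Stc2 lay between 0.230 and 0.498 CPM in the control libraries and between 1.26 and 1.41 CPM in the CR libraries (1.86 ± 0.30, adjusted p = 0.00343, edgeR). In CREX compared to EX it differed by 1.72 ± 0.47 (adjusted p = 0.0415, edgeR), a call lost without CREX 2, CREX 3, EX 2, EX 3 or EX 4 (adjusted p up to 0.149, edgeR). Igfals, a gene that liver expresses strongly, was measured at 2.25, 2.79, 2.44 and 3.41 CPM in control SkM and at 5.57, 4.31 and 4.01 CPM in CR SkM (0.76 ± 0.19, adjusted p = 0.0256, edgeR). The call was lost without CR 1 or without control 1, 2 or 3 (0.60 to 0.77, adjusted p up to 0.0772, edgeR). With CR 2 and CR 3 left out, which keeps 1 CR library, CR 1, the log2 fold change was 1.05 (adjusted p = 0.0187, edgeR), and the part of liver RNA in this result was not tested. In CREX compared to EX, Igfals differed by 0.92 ± 0.25 (adjusted p = 0.0412, edgeR), a call lost without any 1 library other than CREX 1 (adjusted p up to 0.156, edgeR), and without both CREX 2 and CREX 3 of SkM the difference was 0.28. Igfbp1, the classic liver binding protein of fasting, reached at most 4 counts in any library.

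Among other receptors and adaptors of the insulin and IGF family (8 of 10 tested), Grb14 stood out in both tissues. Grb14 encodes an adaptor that inhibits the insulin receptor. In BAT it was downregulated in CR compared to control (-0.999 ± 0.14, adjusted p = 0.00174, edgeR), from 41.6, 30.6 and 26.7 CPM to 15.02, 18.3, 17.2 and 15.3 CPM, and in CREX compared to EX (-1.50 ± 0.16, adjusted p = 0.00181, edgeR). In SkM it was downregulated in CR compared to control (-1.68 ± 0.16, adjusted p = 0.000322, edgeR), from 34.9, 33.2, 26.3 and 27.8 CPM to 7.37, 9.48 and 11.7 CPM. In CREX it was measured at 13.6, 2.67 and 2.86 CPM against 24.4 to 32.0 CPM under EX, so the groups did not overlap, but the spread within CREX was wide and the difference of -2.19 ± 0.60 had an adjusted p of 0.0606 by edgeR and 0.00738 by DESeq2. The lowest values were those of CREX 2 and CREX 3, the libraries with low slow fibre scores. Without CREX 1 the difference was -3.40 and passed, without CREX 2 and CREX 3 it was -1.098 and passed, and with the slow fibre covariate it was -1.67 with an adjusted p of 0.301 (edgeR). Irs1, an adaptor that carries the signal of both receptors, was downregulated in SkM under CR (-0.62 ± 0.17, adjusted p = 0.0381, edgeR). Without CR 2 and CR 3 it differed by -0.31 and did not pass, and the call was lost in 8 of 16 alternatives in all.

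The last list held Igf2 RNA-binding proteins and imprinted growth genes that are often read together with Igf2 (8 of 9 tested in the restriction comparisons). Cdkn1c, an imprinted inhibitor of the cell cycle, was downregulated in BAT in both restriction comparisons (-0.74 ± 0.13 and -0.72 ± 0.15) and upregulated in SkM in both (1.03 ± 0.19 and 0.77 ± 0.17). The calls under CR alone held in each alternative. In CREX compared to EX, the call was lost without any 1 of 5 libraries in BAT (CREX 1, 3 and 4, EX 2 and 3) and of 5 in SkM (CREX 2 and 3, EX 1, 2 and 4), and in BAT also without the libraries with liver RNA (-0.70, adjusted p = 0.126, edgeR). Dlk1, which holds back fat cell differentiation, was downregulated in BAT in both (-1.31 ± 0.30 and -1.84 ± 0.39), at levels of at most 3.72 CPM. The first call was lost without control 1. The second was lost in 3 of 18 alternatives, among them those without CREX 1 or CREX 4. In SkM, Peg3 was upregulated in both (0.73 ± 0.18 and 0.83 ± 0.19), while H19, the noncoding neighbor of Igf2, was downregulated in CREX compared to EX (-1.24 ± 0.18, adjusted p = 0.00693, edgeR) and Plagl1 was upregulated there (1.32 ± 0.34, adjusted p = 0.0332, edgeR). In that comparison, leaving out 1 library ended the call for Peg3 in 4 cases (CREX 2, EX 1, EX 2, EX 4) and for Plagl1 in 5 (CREX 2, CREX 3, EX 2, EX 3, EX 4). Under CR alone, Peg3 lost its call without CR 2 or without control 1, 2 or 4. H19 was measured at 234, 155 and 147 CPM under CREX against 378 to 507 CPM under EX, while Igf2 did not pass. With the slow fibre covariate the difference of H19 was -1.12 with an adjusted p of 0.0824 (edgeR), and Cdkn1c, Peg3, Plagl1, Stc2 and Igfals did not pass in this comparison either. None of the genes of the 4 lists passed in any of the 4 comparisons of training, by edgeR. Hardly any gene did there: 0% of all genes tested in BAT EX and 0.00763% in BAT CREX compared to CR. In SkM these shares were 0.0775% and 0%, so the lists did not differ from the rest of the table in this.

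**Figure D4:**
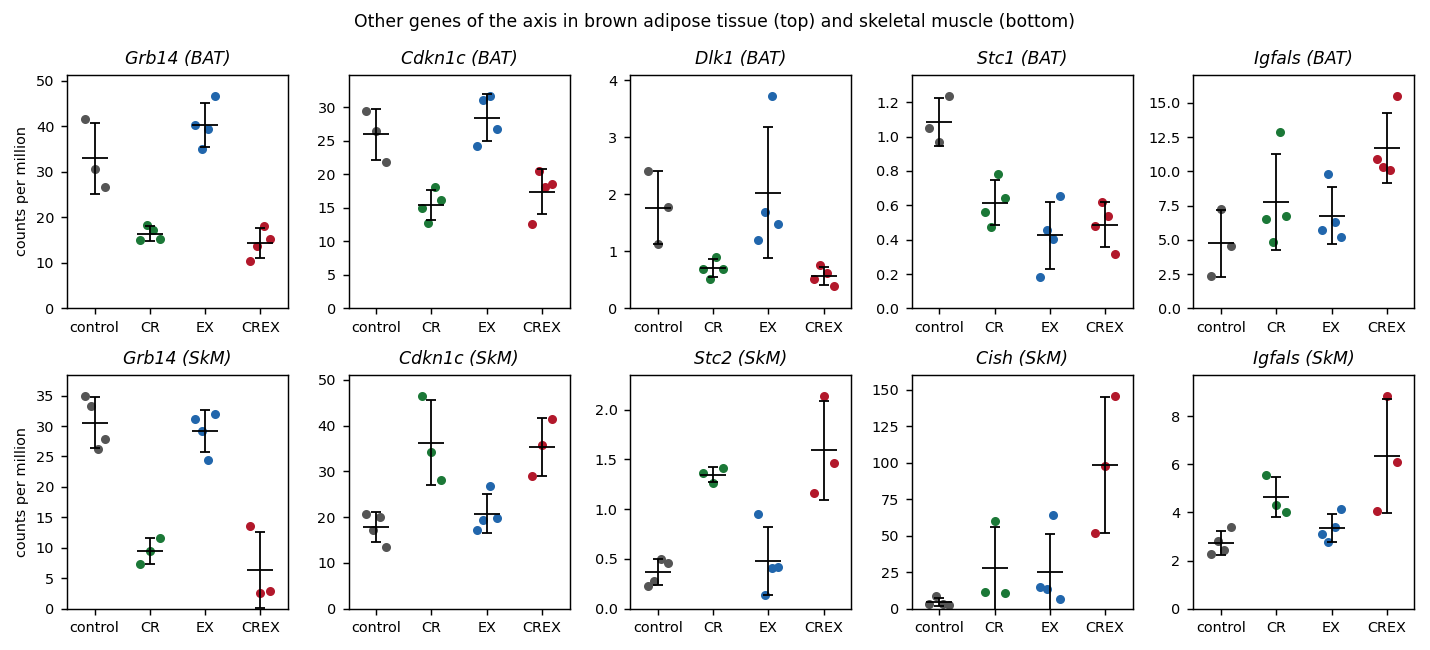
Levels of other axis genes in BAT (top) and SkM (bottom), in CPM on linear axes from 0, where bars that would reach below 0 are cut. Points are libraries, the horizontal mark is the mean and the bar is the SD. Grb14 was lower in the restricted groups of both tissues, Cdkn1c was lower in restricted BAT and higher in restricted SkM, and Cish of SkM was spread widely in every group but the control.

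The genes whose levels across libraries were most like those of Igf1, Ghr, Socs2 and Igfbp3 were listed by Pearson correlation of log2(CPM + 1), over 15 BAT libraries and 11901 genes and over 14 SkM libraries and 11676 genes. The libraries share the groups and, in BAT, the varying muscle RNA, so these values describe the libraries and carry no test. In BAT, Igfbp3 was closest to Ly6c1 (r = 0.955), a surface marker of vessel and blood cells, then to Ptov1 and Fmo2, and Socs2 to Ttc39c (0.922), Eef1d and Cd14. Ghr in BAT was closest to Hps5 (0.890), Dram1 and Haus2, and Igf1 to 1700025G04Rik (0.836), Pik3r1, which encodes the regulatory subunit of PI3-kinase, and Pygo1. In SkM, Ghr was closest to Sel1l3 (0.943), Dtna and Fam69a, and Igfbp3 to Rpusd4 (0.901), Mcm3 and Nop56. Socs2 in SkM was closest to F830016B08Rik (0.890), Pgm3 and Calcrl, and Igf1 to B4galt5 (0.815), Zfp108 and Ap2a1. None of the listed genes was shared between the tissues for any of the 4.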

How the data were processed

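RNA-seq was made from total RNA of 29 samples and sequenced as paired reads on a BGIseq500. Per the methods, the authors trimmed reads with trim-galore, aligned them to mm10 with STAR 2.7.10a and estimated expected counts per gene with RSEM. The submitters' notes name RSEM 1.2.28 and the methods other versions of RSEM and DESeq2, so the versions used are uncertain. The annotation and the strandedness of counting are not given in the sources used here. The deposited values are expected counts, which were rounded to whole numbers. Reads shared by overlapping or similar genes are split by RSEM's model, which can move the counts of Igf2 and Igfbp7.

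Groups came from the sample labels. Each comparison was fitted on its own groups with edgeR 4.0.16 in R 4.3.3 (TMM, filterByExpr, robust quasi-likelihood test), with Benjamini-Hochberg adjustment over all genes tested, and genes were called at an adjusted p below 0.05 and a fold above 1.5, the thresholds of the study, or at the adjusted p alone for differences between effects. The study's own tool, DESeq2 (1.42.0 here), was run as an alternative. CPM were scaled by TMM within a tissue. Intervals are t intervals from the fit. Marker scores are means of log2(CPM + 1). The fit was tested on simulated data. Gene positions (GRCm38) and start site windows (GRCm38.p6) came from RefSeq, and strands, exon lengths and overlapping genes from GENCODE. The members and lists were chosen with earlier results of these data known. Text named all members, list genes that passed and the nearest genes, besides Stat5b, Socs1, Socs3 and Igfbp1, which were chosen after their values were seen. Alternatives were other scaling, filters, tools, 1 fit per tissue, covariates and left-out libraries.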

Additional observations from a re-analysis of the deposited data

Results flagged for a closer look

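Dixon's test was applied to the 10 genes in the groups of 4 libraries, 50 sets in all, of which chance alone flags about 1 in 20. It marked 4 libraries. Igf2 was 23.8 CPM in BAT EX 3 against 6.54 CPM in the next library. Igf2 was 14.6 CPM in SkM EX 3 against 11.7 CPM in the next. Igfbp4 was 52.4 CPM in BAT CR 2, below the next lowest at 70.9 CPM. Igfbp4 was 37.7 CPM in SkM control 1 against 26.5 CPM in the next.

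The effect of CR differed between the tissues for 2 genes by the test of the difference itself (SkM minus BAT, edgeR), which took the libraries of both tissues as independent. The difference in log2 fold change was 0.59 for Ghr in sedentary mice and -0.82 for Igfbp7 in trained mice.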

How the results depend on the processing

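The number of the 10 genes called moved with the settings as follows, with the number called over all genes tested in parentheses. In BAT CR compared to control it was 4 (1430), and 3 with no filter on low counts (1452), the replicate block (929) or the fit on all groups (1379). In BAT CREX compared to EX it was 4 (594), and 1 with no filter on low counts (572) and 2 with the replicate block (465). It was 3 without EX 3 and its high fibroblast score (388) and 0 without the libraries with liver RNA (190). In SkM CR compared to control it was 2 (1264), and 1 in the fit on all groups (1163) and 4 with no fold minimum (1839). In SkM CREX compared to EX it was 1 (1163). It was 2 with DESeq2 (1512), the replicate block (646), the fit on all groups (1610) or the most liver RNA left out (2570). With the slow fibre covariate it was 0 (52). In SkM EX compared to control it was 1 (10), and 0 with the replicate block (1), the fit on all groups (0) or the slow fibre covariate (0). DESeq2 called 1 where edgeR called 0 in BAT EX (39 against 0), BAT CREX compared to CR (30 against 1) and SkM CREX compared to CR (17 against 0). For the tissue difference, edgeR called 1 in sedentary (1089) and 1 in trained mice (804). DESeq2 called 3 (1643) and 3 (1363), and the filter of 10 counts in every library gave 2 in trained mice (988). The causes were not tested. Leaving out 1 library at a time gave 3 to 4 (BAT CR), 1 to 3 (BAT CREX compared to EX), 0 to 2 (SkM CR), 1 to 2 (SkM CREX compared to EX), 0 to 1 (SkM EX), 0 to 3 (tissue difference, sedentary) and 0 to 2 (trained). Over all genes, the BAT and SkM ranges were 994 to 1717, 363 to 582, 928 to 1377, 343 to 2570 and 1 to 19, in that order. Those of the tissue difference were 663 to 1424 and 333 to 2237. The log2 fold change of Igf1 in SkM CR changed sign with the replicate block (-0.062) and without the most liver RNA (-0.37), and ranged from -0.24 to 0.16 with 1 library left out. With 1 library left out, the sign also changed for Socs2 in the SkM interaction (-0.22 to 0.47) and Igf1 in control SkM against BAT (-0.295 to 0.129). The other fold changes that were refitted kept their direction. Those of Stat5b were not refitted. The libraries left out for liver RNA, fibre or fibroblast scores were chosen after seeing the data. The mean correlation of same-numbered libraries of 2 groups within a tissue was between -0.30 and 0.15, with single values from -0.471 to 0.497. Few pairs enter each mean, so this cannot decide whether replicate numbers pair the libraries. Same-numbered libraries of BAT and SkM were not compared.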
